A study of Mus musculus with 6 samples.

Results

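The potassium channel genes are the 93 protein-coding genes of the deposited tables whose symbols start with Kcn and a further letter, out of 55401 genes in all. Kcnj1 was left out by the rule. The genes were chosen by symbol and biotype, not by how they were expressed. Their transcripts were measured in kidneys of 2 groups of mice, with 3 libraries each and every library labelled as a separate biological replicate: Cdo1KKO/Sed, from mice with the genotype given as KO, and WT/Sed, from wild-type mice. Mice of both groups had been made diabetic with streptozotocin, a toxin that destroys the insulin-producing beta cells. The study asked which pathways tubular Cdo1 affects in kidneys with diabetic nephropathy. Cdo1 encodes cysteine dioxygenase, which starts the breakdown of cysteine. The labels name no Cre line or targeted allele, no strain, age or sex, and do not spell out Sed.

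Potassium channels let potassium ions leave or enter cells along their electrochemical gradient. In the renal tubule, channels of the basolateral membrane recycle the potassium brought in by the sodium pump and set the membrane voltage that drives sodium, chloride and bicarbonate transport, while apical channels secrete potassium into the urine. A pore is built from several subunits. The Kcn symbols cover the pore-forming subunits (voltage-gated, inward-rectifying, tandem-pore and calcium- or sodium-activated) and the auxiliary subunits that sit beside the pore and change its gating or traffic.

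The libraries held 28145261 to 43872779 counts. Cdo1, the gene named in the genotype, stood at 109, 118 and 103 CPM in Cdo1KKO/Sed, against 181, 191 and 180.5 CPM in WT/Sed. CPM are counts divided by library sizes that were scaled by the trimmed mean of M values (TMM). The log2 fold change of Cdo1 was -0.74 ± 0.06 (edgeR adjusted p = 4.64e-06). Markers of the proximal tubule, thick ascending limb and podocytes, which define kidney tissue, were counted in every library. All 6 tubular injury markers rose, with a summed level of 8200.2 to 10012 CPM in Cdo1KKO/Sed and 817 to 1077 CPM in WT/Sed, as did 6 of 6 red blood cell markers. Most of the injury sum was Spp1, at a mean of 7242 CPM in Cdo1KKO/Sed and 934 CPM in WT/Sed. Of 7 macrophage markers, 5 rose and 1 (Csf1r) fell. The part of these shifts in the results below was not tested. In whole kidney, fewer cells of a type and less RNA per cell cannot be told apart.

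The feature that unites the pore-forming subunits is the selectivity filter, a short stretch of the pore loop that strips water from potassium ions. It could be read from the coding sequences of GENCODE M21 (GRCm38), taking the principal transcript of each gene. The filter signature searched was threonine or serine, then an aliphatic residue, threonine, methionine or alanine, then glycine, then tyrosine, phenylalanine or leucine, then glycine. It was found in 76 of the 93 genes and divided them by role: 14 of 14 tandem-pore genes held it in duplicate, the other pore-forming genes held it once, and 12 of 12 auxiliary genes of the voltage-gated channels, the 4 Kcnmb genes and Kcnrg held none. The stretches of Kcnj2 and Kcnj8, inward rectifiers that moved in opposite directions, are shown to let their pores be compared. Capitals mark the codons of the filter.
Kcnj2: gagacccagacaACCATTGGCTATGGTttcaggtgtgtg
Kcnj8: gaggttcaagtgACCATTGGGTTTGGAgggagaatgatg
They lie at chr11:111072195-111072233 (plus strand, exon 2 of 2, Kcnj2) and chr6:142566436-142566474 (minus strand, exon 3 of 3, Kcnj8). Kcnj8 differs from Kcnj2 at 3 of the 15 capital bases and encodes 1 other filter residue. Over the whole coding sequence, Kcnj15 and Kcnj10 are the closest pair of the 5 inward rectifiers that changed, with 65.4% identical bases, against 55.8% to 61.4% for the other pairs.

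Potassium channel transcript was concentrated in a few genes. Levels of different genes are compared as the deposited TPM, which are scaled for gene length. Kcnj15 averaged 472 ± 12.01 TPM in Cdo1KKO/Sed and 605 ± 41.2 TPM in WT/Sed, and Kcnj16 averaged 420.2 ± 2.77 TPM in Cdo1KKO/Sed and 564 ± 73.7 TPM in WT/Sed (SD, n = 3 each). Together with Kcnk5, these genes held 85.4% to 86.3% of the summed TPM of the 93 genes in Cdo1KKO/Sed and 90.7% to 91.2% in WT/Sed. The ranges do not overlap. Kcnj15 and Kcnj16 differed by less than their spread in WT/Sed.

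After them came Kcnk5, at 110.1 ± 2.49 TPM in Cdo1KKO/Sed and 148 ± 58.2 TPM in WT/Sed. Kcnk1 was at 38.5 ± 3.32 TPM in Cdo1KKO/Sed and 40.8 ± 7.12 TPM in WT/Sed, and Kcnj10 at 40.9 ± 1.24 TPM in Cdo1KKO/Sed and 23.8 ± 3.93 TPM in WT/Sed. Kcnk1 and Kcnj10 therefore lay within their spread of each other in Cdo1KKO/Sed and apart in WT/Sed. Kcnq1 (13.5 ± 0.846 TPM in Cdo1KKO/Sed, 9.87 ± 1.57 TPM in WT/Sed) was the last gene with a mean of at least 10 TPM over the 6 libraries. In all, 22 of the 93 genes averaged at least 1 TPM, and 10 had no count in any library.

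**Figure D1:**
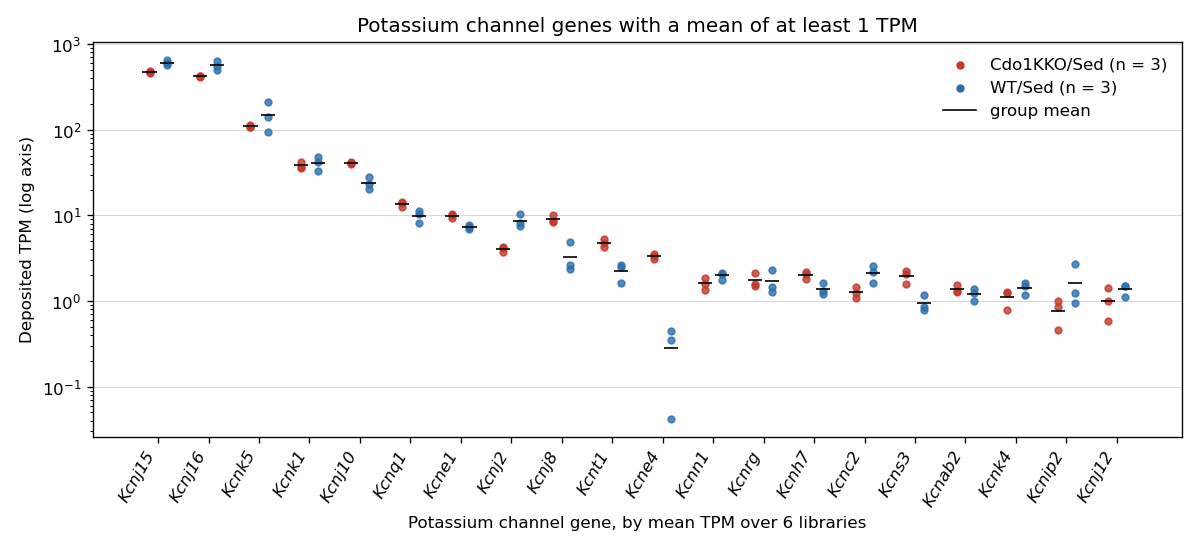
Deposited TPM of 20 of the 22 potassium channel genes with a mean of at least 1 TPM, on a log axis, in order of their mean over the 6 libraries. Red points are Cdo1KKO/Sed libraries, blue points WT/Sed libraries, and black lines group means. Kcnj15 and Kcnj16 stand above all others in both groups, and Kcne4 shows the widest gap between the groups, at 3.32 TPM in Cdo1KKO/Sed against 0.279 TPM in WT/Sed.

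The groups were compared gene by gene with edgeR's quasi-likelihood F test on counts, with Benjamini-Hochberg adjustment over all 17194 genes tested. Rose and fell are used of genes with an adjusted p under 0.05. Log2 fold changes set Cdo1KKO/Sed over WT/Sed and carry an approximate SE. Of the 93 genes, 52 had enough counts to be tested: 10 rose, 7 fell and 35 did not pass the test. The 17 changed genes are 32.7% of those tested, against 37.4% of all genes tested (18.9% higher and 18.5% lower). The median log2 fold change was 0.02 over the 52 genes and 0.01 over all genes. In 25 of the 52 genes (48.1%) every library of one group lay above every library of the other, against 50.3% of all genes tested. Changes that passed the test and were at least 2-fold made up 13.5% of the 52 genes upward (7 genes), against 6.76% of all genes tested, and 5.77% downward (3 genes), against 1.65% of all genes tested. The share that passed the test at any size was thus near that of all genes, and these differences in share were not tested. With library size as the only scaling, 14 rose and 4 fell, and the median over all genes was 0.18.

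**Figure D2:**
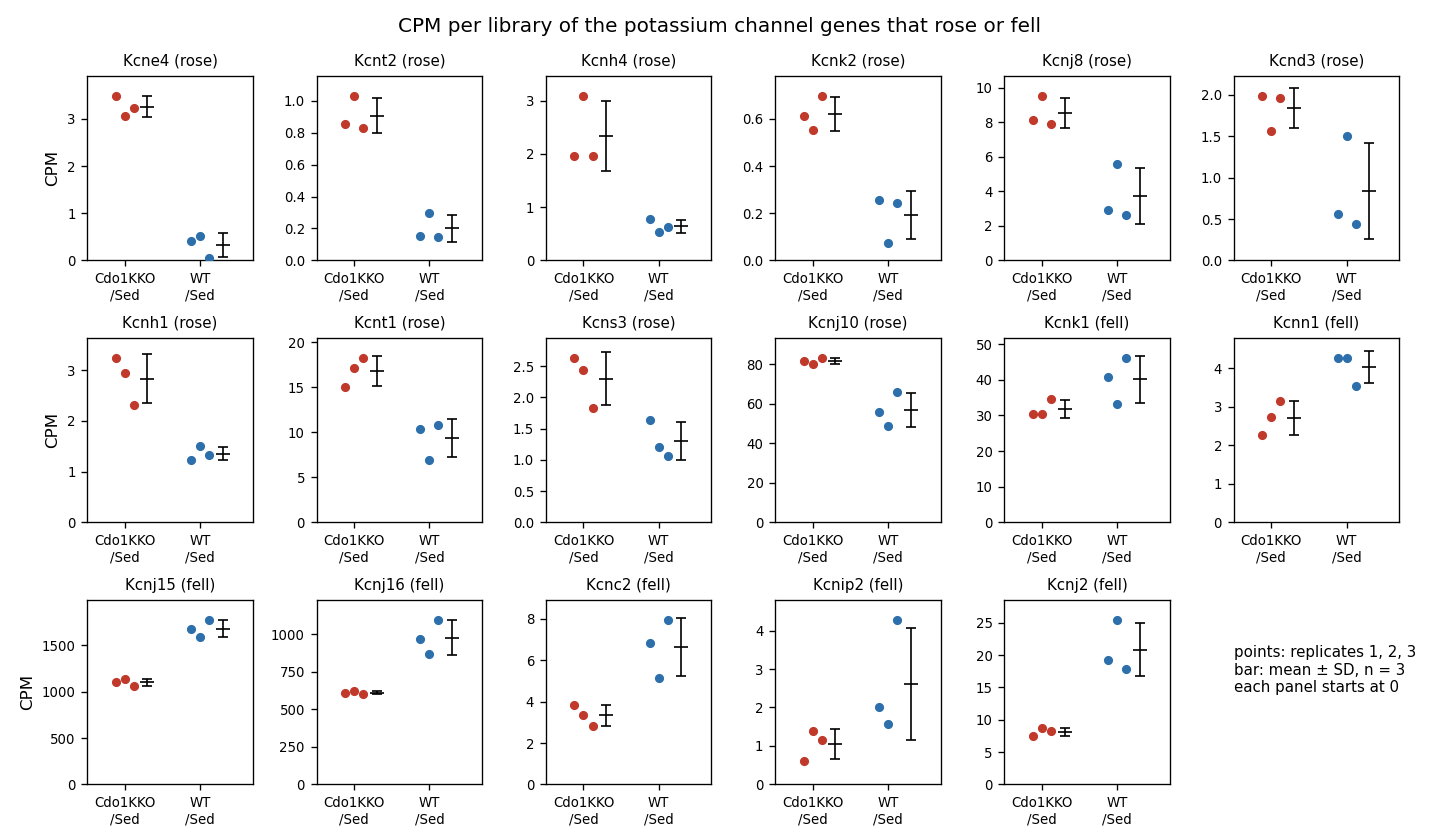
CPM of each library for the 10 genes that rose and the 7 that fell, ordered by log2 fold change, with Cdo1KKO/Sed left of WT/Sed. Points are replicates 1, 2 and 3, and bars are the mean ± SD. The groups are separate in 16 panels. In the Kcnk1 panel the highest Cdo1KKO/Sed library, at 34.6 CPM, lies above the lowest WT/Sed library, at 33.3 CPM.

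The inward rectifiers split. Of 14 genes, 9 were tested: Kcnj2, Kcnj16 and Kcnj15 fell, and Kcnj8 and Kcnj10 rose. Their median log2 fold change was -0.35, and the summed level of all 14 was 948 ± 14.1 TPM in Cdo1KKO/Sed and 1208 ± 116 TPM in WT/Sed (SD, n = 3 each). Kcnj15 (ENSMUSG00000062609.14, chromosome 16, 95257558 to 95300260, plus strand) encodes Kir4.2, a basolateral channel of the proximal tubule. It was at 1105, 1136 and 1059.5 CPM in the Cdo1KKO/Sed libraries, against 1677, 1591 and 1776 CPM in the WT/Sed libraries. Every Cdo1KKO/Sed library was below every WT/Sed library, with a log2 fold change of -0.61 ± 0.05 (edgeR adjusted p = 7.36e-06).

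Kcnj16 (ENSMUSG00000051497.15, chromosome 11, 110968033 to 111027968, plus strand) encodes Kir5.1, a subunit that is known to form channels in the tubule together with Kir4.1 or Kir4.2. It stood at 609, 623 and 602 CPM in Cdo1KKO/Sed, against 968, 866 and 1096 CPM in WT/Sed. The Cdo1KKO/Sed libraries lay close together and the WT/Sed libraries were more spread, without overlap (log2 fold change -0.68 ± 0.08, edgeR adjusted p = 5.55e-05). Kcnj2 (ENSMUSG00000041695.2), which encodes Kir2.1, is the next potassium channel gene on the same strand of chromosome 11, 38.2 kb beyond Kcnj16, at 111066164 to 111076821. It was at 7.53, 8.70 and 8.20 CPM in Cdo1KKO/Sed, against 19.3, 25.5 and 17.8 CPM in WT/Sed. This was the largest decrease among the tested potassium channel genes (log2 fold change -1.35 ± 0.13, edgeR adjusted p = 2.12e-05). The ratio of Kcnj2 to Kcnj16 TPM was 0.00894, 0.0101 and 0.00985 in Cdo1KKO/Sed, against 0.0144, 0.0212 and 0.0117 in WT/Sed, and was lower in every Cdo1KKO/Sed library (exact permutation p = 0.1).

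Kcnj10 (ENSMUSG00000044708.5, chromosome 1, 172341210 to 172374085, plus strand) encodes Kir4.1, which with Kir5.1 forms the main basolateral potassium channel of the distal convoluted tubule. It was at 81.6, 80.1 and 83.2 CPM in Cdo1KKO/Sed, against 55.9, 48.5 and 65.7 CPM in WT/Sed. All Cdo1KKO/Sed libraries were above all WT/Sed libraries (log2 fold change 0.52 ± 0.09, edgeR adjusted p = 0.00189). Kcnj10 made up 7.93%, 7.61% and 8.40% of the summed TPM of Kcnj10 and Kcnj15 in Cdo1KKO/Sed, against 3.75%, 3.43% and 4.14% in WT/Sed. This ratio is taken within each library and does not depend on the scaling between libraries. An exact 2-sided permutation test over the 6 libraries gave p = 0.1, the smallest that 3 against 3 allow. Kcnj10 TPM was higher and Kcnj15 TPM lower in every Cdo1KKO/Sed library, so this outcome was fixed in advance. The share therefore adds no support beyond the changes of these genes. Kcnj16 per Kcnj10 plus Kcnj15 was 0.814, 0.813 and 0.835 in Cdo1KKO/Sed, against 0.891, 0.844 and 0.949 in WT/Sed (exact p = 0.1).

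**Figure D3:**
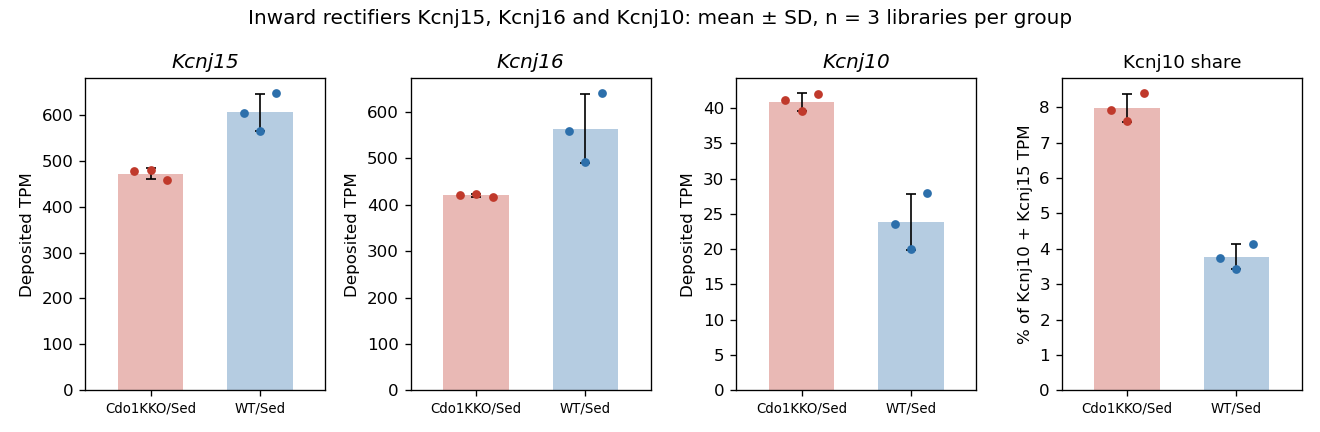
Deposited TPM of Kcnj15, Kcnj16 and Kcnj10, and Kcnj10 as a percentage of Kcnj10 plus Kcnj15, with bars for the mean, error bars for the SD and points for the 3 libraries of each group. Kcnj15 and Kcnj16 are lower and Kcnj10 is higher in Cdo1KKO/Sed, and the Kcnj10 share averages 7.98% in Cdo1KKO/Sed against 3.77% in WT/Sed.

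Tubule segment markers moved in the same libraries. All 8 proximal tubule markers fell (median log2 fold change -0.70), with a summed level of 5647 to 6171 CPM in Cdo1KKO/Sed and 9417 to 9989 CPM in WT/Sed. Of 5 distal convoluted tubule markers, 4 rose and none fell (median 0.45), among them Slc12a3 and Wnk1, which return below among the partners, with a summed level of 2450.3 to 2479 CPM in Cdo1KKO/Sed and 1646 to 1909 CPM in WT/Sed. Of 5 thick ascending limb markers, 2 rose and 1 fell. Of 6 principal cell markers, none rose and 2 fell, and of 6 intercalated cell markers, 3 rose (Slc4a1, Aqp6 and Atp6v0d2) and none fell. Slc4a1 is also counted among the red blood cell markers above, and the call of Atp6v0d2 ended under at least 1 alternative setting. None of these markers was at 0. Their part in the changes of Kcnj15, Kcnj16 and Kcnj10 was not tested. Kcnj15 overlaps the opposite-strand gene Gm49643 by 333 exonic bases (5.27% of its own). Gm49643 fell too (log2 fold change -0.67 ± 0.08, edgeR adjusted p = 5.64e-05), with 492 to 658 counts in Cdo1KKO/Sed and 600 to 1007 counts in WT/Sed, where Kcnj15 had 36088 to 48601 counts in Cdo1KKO/Sed and 42440 to 73000 counts in WT/Sed. Reads of both strands cannot be told apart without the strand setting of the counting.

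The 250 bases before the annotated starts of Kcnj15 and Kcnj10 (RefSeq, GRCm38.p6) are shown because these closely related genes moved in opposite directions. They lie at chr16:95257308-95257557 and chr1:172340960-172341209, both on the plus strand.
Kcnj15: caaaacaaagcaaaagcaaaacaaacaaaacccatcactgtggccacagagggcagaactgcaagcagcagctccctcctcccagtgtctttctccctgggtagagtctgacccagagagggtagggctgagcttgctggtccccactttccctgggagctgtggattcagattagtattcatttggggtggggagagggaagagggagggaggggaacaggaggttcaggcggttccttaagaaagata
Kcnj10: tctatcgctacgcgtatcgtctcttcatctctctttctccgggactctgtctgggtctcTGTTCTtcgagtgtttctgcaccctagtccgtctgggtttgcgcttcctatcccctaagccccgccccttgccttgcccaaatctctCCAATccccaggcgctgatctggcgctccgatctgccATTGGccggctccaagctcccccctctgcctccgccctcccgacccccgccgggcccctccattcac
Capitals mark the motifs found, on either strand, among the 6 searched: the TATA box TATAAA, the CCAAT box, the AP-1 site TGANTCA, the STAT site TTCNNNGAA, GTTAAT of HNF1 sites and AGAACA of steroid receptor sites. The Kcnj10 window holds CCAAT in 2 places and AGAACA in 1, and the Kcnj15 window holds none of the 6. Among all 32851 RefSeq windows of this length, 33.8% hold CCAAT and 16.1% hold AGAACA, while the shares are 12.4% for TATAAA, 6.75% for TGANTCA, 7.02% for TTCNNNGAA and 6.43% for GTTAAT. The windows also differ in composition, with 17 CG pairs and 62.0% G or C before Kcnj10, and 1 CG pair and 53.2% G or C before Kcnj15.

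Kcnj8 (ENSMUSG00000030247.9) encodes Kir6.1, the pore of the ATP-sensitive channel of vascular smooth muscle and pericytes. It was at 8.15, 9.53 and 7.91 CPM in Cdo1KKO/Sed, against 2.93, 5.58 and 2.63 CPM in WT/Sed. WT/Sed replicate 2 was the highest of its group but still below every Cdo1KKO/Sed library (log2 fold change 1.23 ± 0.26, edgeR adjusted p = 0.00556). Abcc9, the sulfonylurea receptor subunit SUR2 that assembles with Kir6.1, went the other way, at 12.3, 13.3 and 12.2 CPM in Cdo1KKO/Sed and 20.2, 18.6 and 20.4 CPM in WT/Sed (log2 fold change -0.65 ± 0.08, edgeR adjusted p = 1.25e-04). Of 7 markers of smooth muscle and pericytes, 3 rose (Pdgfrb, Cspg4 and Notch3), 4 did not pass the test and none fell. The calls of Cspg4 and Notch3 each ended under at least 1 alternative setting. The summed level of the 7 markers was 93.4 to 99.1 CPM in Cdo1KKO/Sed and 49.7 to 98.7 CPM in WT/Sed. None was at 0, and their part in the rise of Kcnj8 was not tested. Of the other tested inward rectifiers, Kcnj12, Kcnj13, Kcnj5 and Kcnj11 had log2 fold changes of -0.68, -0.35, 0.20 and 0.084 and did not pass the test.

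Of the 14 tandem-pore genes, 6 were tested, 1 rose and 1 fell. Kcnk5 (ENSMUSG00000023243.9, chromosome 14, minus strand), which encodes the alkaline-activated channel TASK-2 of the proximal tubule, is the third most abundant potassium channel transcript but did not pass the test. It was at 136, 138 and 141 CPM in Cdo1KKO/Sed, against 212, 319 and 139 CPM in WT/Sed. The Cdo1KKO/Sed libraries were nearly equal and overlapped WT/Sed replicate 3, while WT/Sed replicate 2 had more than double the level of WT/Sed replicate 3 (log2 fold change -0.69 ± 0.33, edgeR adjusted p = 0.179). Without WT/Sed replicate 3 the adjusted p was 0.031. Kcnk1 (ENSMUSG00000033998.9), which encodes TWIK-1, fell slightly, at 30.4, 30.3 and 34.6 CPM in Cdo1KKO/Sed and 40.9, 33.3 and 46.2 CPM in WT/Sed. The groups overlap (log2 fold change -0.34 ± 0.11, edgeR adjusted p = 0.0406), and the call ended under 7 of the 15 alternative settings.

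Kcnk2 (ENSMUSG00000037624.15), which encodes the stretch- and lipid-sensitive channel TREK-1, rose at a low level. It was at 0.612, 0.553 and 0.698 CPM in Cdo1KKO/Sed, against 0.257, 0.0750 and 0.243 CPM in WT/Sed (log2 fold change 1.62 ± 0.48, edgeR adjusted p = 0.0215). These values rest on 20, 22 and 32 counts in Cdo1KKO/Sed and 10, 2 and 10 counts in WT/Sed, and the adjusted p was 0.052 to 0.089 without any 1 Cdo1KKO/Sed library. Of the other tested genes of the class, Kcnk3, Kcnk6 and Kcnk4 had log2 fold changes of 1.49, 0.59 and -0.63 and did not pass the test. Kcnk3 rose with library size as the only scaling (adjusted p 0.0403), with limma-voom (0.0484) and with the deposited TPM plus 0.1 (0.021) or plus 1 (0.0311). Kcnk6 rose with log2(TPM + 1) (0.0476) and without WT/Sed replicate 2 (0.0408), and Kcnk4 fell without WT/Sed replicate 3 (0.022).

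Among the voltage-gated alpha subunits of the Kcna to Kcnd families, 7 of 17 genes were tested, 1 rose and 1 fell. Kcnc2 (ENSMUSG00000035681.7, chromosome 10, plus strand) encodes Kv3.2, known from fast-spiking neurons. It was at 3.83, 3.35 and 2.83 CPM in Cdo1KKO/Sed, against 6.81, 5.14 and 7.95 CPM in WT/Sed. The groups are separate, and the log2 fold change was -1.005 ± 0.19 (edgeR adjusted p = 0.00170). Of 7 markers of neurons and glia, 1 had enough counts to be tested and fell, and Snap25 and Sox10 had no count in any library. The summed level of these markers was 4.36 to 5.26 CPM in Cdo1KKO/Sed and 6.23 to 6.97 CPM in WT/Sed, and their part in the fall of Kcnc2 was not tested.

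Kcnd3 (ENSMUSG00000040896.16), which encodes Kv4.3, a channel of the transient outward current, rose. It was at 1.99, 1.56 and 1.96 CPM in Cdo1KKO/Sed, against 0.565, 1.499 and 0.438 CPM in WT/Sed, and WT/Sed replicate 2 nearly reached the lowest Cdo1KKO/Sed library (log2 fold change 1.20 ± 0.41, edgeR adjusted p = 0.0396). Its adjusted p was 0.161 without WT/Sed replicate 1, 0.0646 without WT/Sed replicate 3 and 0.0764 to 0.132 without any 1 Cdo1KKO/Sed library.

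The silent alpha subunits form no channel alone and modify Kv2 channels. Of 10 genes, 4 were tested and Kcns3 (ENSMUSG00000043673.11, Kv9.3) rose, at 2.63, 2.44 and 1.83 CPM in Cdo1KKO/Sed against 1.64, 1.20 and 1.07 CPM in WT/Sed (log2 fold change 0.81 ± 0.26, edgeR adjusted p = 0.0306). The groups do not overlap, but the call ended without WT/Sed replicate 3 and without Cdo1KKO/Sed replicates 1 or 2 (adjusted p 0.0661, 0.119 and 0.1003).

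In the ether-a-go-go family, 4 of 8 genes were tested, and both genes that changed rose. The median log2 fold change was 0.75, and the summed level of all 8 was 5.23 ± 0.338 TPM in Cdo1KKO/Sed and 2.52 ± 0.176 TPM in WT/Sed (SD, n = 3 each). Kcnh4 (ENSMUSG00000035355.15, chromosome 11, minus strand), a member of the Elk branch, was at 1.96, 3.09 and 1.96 CPM in Cdo1KKO/Sed, against 0.771, 0.525 and 0.632 CPM in WT/Sed. The lowest Cdo1KKO/Sed library had over double the highest WT/Sed level (log2 fold change 1.84 ± 0.30, edgeR adjusted p = 5.59e-04). Kcnh1 (ENSMUSG00000058248.12, chromosome 1, plus strand), the founding mammalian member of the family, Kv10.1, was at 3.25, 2.94 and 2.31 CPM in Cdo1KKO/Sed, against 1.23, 1.499 and 1.34 CPM in WT/Sed (log2 fold change 1.06 ± 0.23, edgeR adjusted p = 0.00358). Kcnh7, the most abundant of the family by TPM, was at 11.5, 10.2 and 12.1 CPM in Cdo1KKO/Sed and 8.12, 8.85 and 10.9 CPM in WT/Sed, with overlap, and did not pass the test (log2 fold change 0.28 ± 0.13, edgeR adjusted p = 0.112). It rose with library size as the only scaling (adjusted p 0.0161), with log2(TPM + 1) (0.0495) and without WT/Sed replicate 3 (0.0138). Kcnh7 overlaps the opposite-strand gene Gca by 696 exonic bases (4.57% of its own). Gca averaged 16.7 TPM and had a log2 fold change of 0.22 ± 0.10 (edgeR adjusted p = 0.101). Gca had 781 to 1238 counts in Cdo1KKO/Sed and 545 to 962 in WT/Sed, against 377 to 555 and 236 to 447 for Kcnh7. The part of Gca reads in the Kcnh7 counts was not tested.

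Both sodium-activated channel genes rose as well. With the large conductance channels and their beta subunits they make up 8 genes, of which 5 were tested and these 2 changed. Kcnt1 (ENSMUSG00000058740.14, chromosome 2, plus strand), which encodes Slack, was at 15.04, 17.1 and 18.3 CPM in Cdo1KKO/Sed, against 10.4, 6.90 and 10.8 CPM in WT/Sed (log2 fold change 0.83 ± 0.16, edgeR adjusted p = 0.00215). Kcnt2 (ENSMUSG00000052726.16, chromosome 1, plus strand), which encodes its relative Slick, was at 0.857, 1.03 and 0.828 CPM in Cdo1KKO/Sed, against 0.154, 0.300 and 0.146 CPM in WT/Sed (log2 fold change 2.22 ± 0.43, edgeR adjusted p = 0.00186). Kcnt2 was at a low level and was not tested under the alternative filter of at least 1 CPM in 3 libraries. Both genes separated the groups, and the rest of the class (the BK channel alpha subunit Kcnma1, Kcnmb1 and Kcnu1 among those tested) did not pass the test, although Kcnmb1 rose without WT/Sed replicate 2 (adjusted p 0.0285). Kcnma1, which secretes potassium at high urine flow, was at 1.92 ± 0.384 CPM in Cdo1KKO/Sed and 2.22 ± 0.634 CPM in WT/Sed (SD, n = 3 each). The filters of the ether-a-go-go and sodium-activated genes that rose are shown for comparison with Kcnj2 and Kcnj8 above, again with the filter codons in capitals.
Kcnh4: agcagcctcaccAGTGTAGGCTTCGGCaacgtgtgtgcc
Kcnh1: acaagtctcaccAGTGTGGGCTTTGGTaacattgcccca
Kcnt1: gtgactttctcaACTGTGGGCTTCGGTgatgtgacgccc
Kcnt2: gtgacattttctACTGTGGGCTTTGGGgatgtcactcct
They lie at chr11:100750281-100750319 (minus strand, Kcnh4), chr1:192337742-192337780 (plus strand, Kcnh1), chr2:25894355-25894393 (plus strand, Kcnt1) and chr1:140425266-140425304 (plus strand, Kcnt2). Kcnh4 and Kcnh1 differ from Kcnj2 in 3 filter residues, and Kcnt1 and Kcnt2 in 2.

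Of the small and intermediate conductance calcium-activated channels, 4 of 4 genes were tested and Kcnn1 (ENSMUSG00000002908.17), the SK1 subunit, fell. It was at 2.27, 2.74 and 3.14 CPM in Cdo1KKO/Sed, against 4.27, 4.27 and 3.55 CPM in WT/Sed (log2 fold change -0.56 ± 0.19, edgeR adjusted p = 0.0351). The groups do not overlap, but the call ended under 8 of the 15 alternative settings. Kcnn4, the intermediate conductance channel, did not pass the test (0.450 ± 0.251 CPM in Cdo1KKO/Sed and 0.396 ± 0.0797 CPM in WT/Sed).

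The largest change of any tested potassium channel gene was in an auxiliary subunit. Kcne4 (ENSMUSG00000047330.8, chromosome 1, 78816758 to 78820028, plus strand) encodes a single-span subunit known to inhibit Kv7.1 and some Kv1 channels. It was at 3.49, 3.07 and 3.23 CPM in Cdo1KKO/Sed, against 0.411, 0.525 and 0.0486 CPM in WT/Sed. The Cdo1KKO/Sed values rest on 114, 122 and 148 counts and those of WT/Sed on 16, 14 and 2 counts, and the lowest Cdo1KKO/Sed library was more than 5-fold above the highest WT/Sed library. The log2 fold change was 3.39 ± 0.48 (edgeR adjusted p = 3.79e-04), a 10.5-fold difference, and the gene ranked 12 of the 93 by mean TPM in Cdo1KKO/Sed and 40 in WT/Sed.

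Kcnip2 (ENSMUSG00000025221.16), the calcium-binding subunit KChIP2 of Kv4 channels, fell while its pore partner Kcnd3 rose. It was at 0.612, 1.38 and 1.16 CPM in Cdo1KKO/Sed, against 2.00, 1.57 and 4.28 CPM in WT/Sed (log2 fold change -1.32 ± 0.42, edgeR adjusted p = 0.0341). WT/Sed replicate 3 had more than double the level of any other library. Without it the adjusted p was 0.0813, and the call ended under 7 of the 15 alternative settings. Kcnq1 and Kcne1, which together form the slow delayed rectifier of the heart and are also expressed in the proximal tubule, did not pass the test. Kcnq1 was at 18.9, 21.7 and 20.7 CPM in Cdo1KKO/Sed and 19.99, 14.8 and 18.5 CPM in WT/Sed (log2 fold change 0.20 ± 0.11, edgeR adjusted p = 0.188). Kcne1 was at 12.2, 11.2 and 12.1 CPM in Cdo1KKO/Sed and 10.3, 11.02 and 9.78 CPM in WT/Sed (log2 fold change 0.19 ± 0.10, edgeR adjusted p = 0.151). Both rose with library size as the only scaling (adjusted p 0.0188 for Kcnq1 and 0.0136 for Kcne1) and with the deposited TPM. Their TPM ratio, Kcne1 over Kcnq1, averaged 0.741 ± 0.0820 in Cdo1KKO/Sed and 0.759 ± 0.164 in WT/Sed (SD, n = 3 each; exact permutation p = 0.9). Of the 12 auxiliary genes of voltage-gated channels, 10 were tested, and Kcne4 and Kcnip2 were those that changed. Kcnrg, a soluble regulator of Kv channels, did not pass the test (log2 fold change -0.22 ± 0.30, edgeR adjusted p = 0.605).

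**Figure D4:**
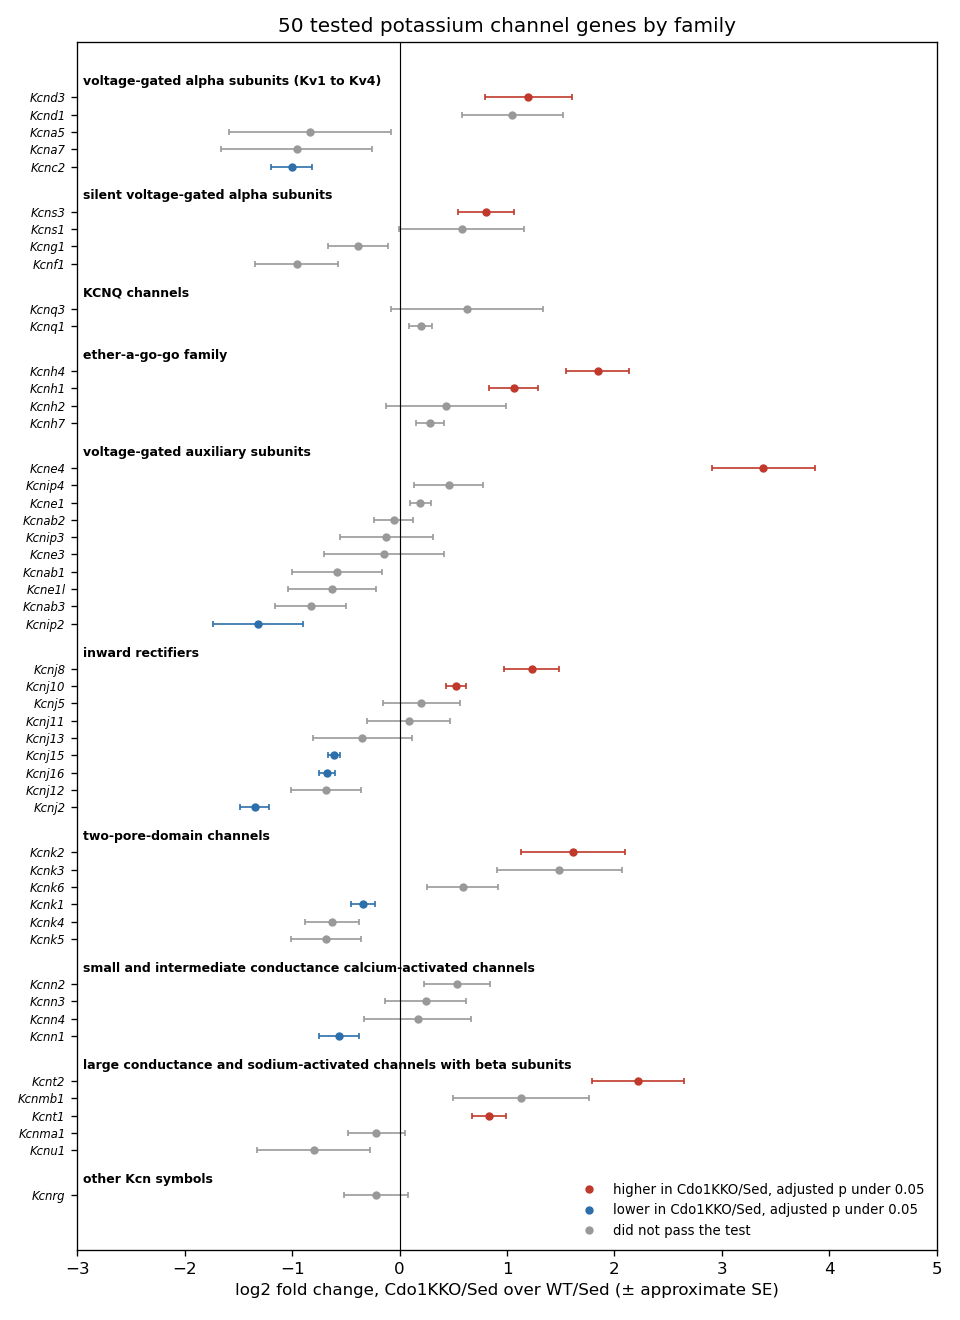
Log2 fold changes with approximate SE (Cdo1KKO/Sed divided by WT/Sed) of 50 of the 52 tested potassium channel genes, grouped by family. Red points rose, blue points fell and grey points did not pass the test. Kcne4 lies farthest right, at 3.39, and Kcnj2 farthest left, at -1.35, and the inward rectifiers hold points of both colours.

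The remaining 41 genes had too few counts to be tested, with at most 20 counts in any library and a mean of at most 0.206 TPM (Kcne2). Of these, 10 had no count at all, 4 were counted in Cdo1KKO/Sed alone and 2 in WT/Sed alone. The 41 include the G protein-gated Kcnj3, Kcnj6 and Kcnj9, most Kcna genes and 3 of the 5 Kcnq genes. Differences in these genes were not detectable at this depth.

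Of 41 genes that work with these channels in renal potassium handling or as partner subunits, 35 were tested, 7 rose and 10 fell (48.6%, against 37.4% of all genes tested). Among the cation-chloride cotransporters, which carry potassium or depend on its recycling, the thiazide-sensitive Slc12a3 rose (1365 ± 9.05 CPM in Cdo1KKO/Sed and 1002 ± 114 CPM in WT/Sed), as did Slc12a1 and the potassium-chloride cotransporter Slc12a4, while Slc12a7 fell (97.7 ± 0.642 CPM in Cdo1KKO/Sed and 127 ± 17.2 CPM in WT/Sed). Of the sodium channel and pump genes, Scnn1a rose, and the pump's Atp1b1 and Fxyd2 fell (Atp1b1 had a log2 fold change of 0.0082 on either deposited TPM scale). The log2 fold change of Fxyd2 was -0.59 ± 0.05. Of the WNK kinase pathway, Wnk1 and Stk39 rose and Nedd4l and Sgk1 fell. Sgk1, an aldosterone-induced kinase, was at 68.9, 66.5 and 71.0 CPM in Cdo1KKO/Sed, against 231, 127 and 314 CPM in WT/Sed, with all WT/Sed libraries higher and widely spread (log2 fold change -1.71 ± 0.37, edgeR adjusted p = 0.0236). The mineralocorticoid receptor Nr3c2 rose (19.4 ± 0.810 CPM in Cdo1KKO/Sed and 12.7 ± 1.18 CPM in WT/Sed), and none of the 3 basolateral chloride channel genes passed the test. Of the 13 partner subunits and related channels without a Kcn symbol, 7 were tested and 4 fell: Abcc9, Amigo1, Tmem175 and Tmem38b. Among these partners the calls of Slc12a1, Slc12a7, Atp1b1, Stk39, Nedd4l, Sgk1, Amigo1, Tmem175 and Tmem38b each ended under at least 1 alternative setting.

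For 11 of the 17 changed genes the call held under each of the 15 alternative settings in which the gene was tested: Kcne4, Kcnt2, Kcnh4, Kcnj8, Kcnh1, Kcnt1 and Kcnj10 among those that rose, and Kcnj2, Kcnc2, Kcnj16 and Kcnj15 among those that fell. The other 6 were Kcnk2, Kcnd3, Kcns3, Kcnip2, Kcnn1 and Kcnk1. The WT/Sed libraries were more spread than the Cdo1KKO/Sed libraries in 36 of the 52 tested genes, with a median coefficient of variation of 17.5% in Cdo1KKO/Sed and 23.0% in WT/Sed. Endothelial markers summed to 196 to 201 CPM in Cdo1KKO/Sed and 53.9 to 220 CPM in WT/Sed. Podocyte markers summed to 253 to 272 CPM in Cdo1KKO/Sed and 204 to 407 CPM in WT/Sed. The proximal tubule sums given above varied less within WT/Sed. The part of these differences in the spread was not tested.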

How the data were processed

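Poly(A) RNA of 6 diabetic mouse kidneys was sequenced, 3 per group, after oligo(dT) enrichment and the VAHTS Universal V6 kit, per the labels' protocols. The submitters' processing notes name fastp 0.23.4 and the builds GRCm38 and mm10. No aligner, counter, annotation or strand setting is named there. The authors deposited counts per gene, which are whole numbers, and TPM, which follow from the counts with 1 length per gene (within 2% in all of 10930 genes with at least 100 counts in every library). Of the deposited counts from 1 to 20, 73.7% are even, and the cause was not tested. In the potassium channel genes, 29 of 30, 36 of 39 and 31 of 35 such counts were even in WT/Sed replicates 1, 2 and 3. In Cdo1KKO/Sed replicates 1, 2 and 3 these were 30 of 36, 25 of 32 and 34 of 35. All 6 value columns were matched to samples by library name.

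The test of the counts was that of edgeR 4.0.16 under R 4.3.3 (filterByExpr, TMM, robust quasi-likelihood F test, genotype as the only term). On simulated counts, 3 against 3, it recovered 85% of changes at an absolute log2 fold change of 1 and 97% at 2. There were 15 false calls among 16817 genes. Changes were simulated only in genes averaging over 1 CPM, so recovery at the lower levels of genes such as Kcnk2 was not checked. The SE is the absolute log2 fold change divided by the square root of F. Within-library ratios were compared by an exact permutation test. Alternatives used DESeq2 1.42.0, limma 3.58.1, other scalings and filters, deposited TPM with a pseudocount of 0.1 or 1, each library left out, and a replicate block. Coordinates came from GENCODE M21. It holds 87 of the 93 identifiers in the same version, and the other 6 (Kcnt2 and Kcnip2 among them) were matched without the version. Of the 93 genes, 68 matched the RefSeq promoter table. Figures were drawn with matplotlib 3.10.9.

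Named were the 15 genes with the highest mean TPM, the 10 risen and 10 fallen genes with the smallest p, every changed gene at least 2-fold apart, the changed genes of each family with 5 or fewer, and up to 4 changed genes of each partner list by p. Others were named after their values were seen. The alternatives were also run for 9 of them. The genes, lists and rules were chosen with earlier results of these data known. The edgeR p-values set the difference between the groups against the spread among these libraries within each group. A few genes and sequences are not reported here, and counts over all genes or lists still include those genes.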

Additional observations from a re-analysis of the deposited data

How the results depend on the processing

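Of the 52 tested potassium channel genes, 10 rose and 7 fell. With log2(TPM + 1) and limma 16 rose and 4 fell, with log2(TPM + 0.1) and limma 4 fell, and with library size as the only scaling 4 fell. Those 4 were Kcnj15, Kcnj16, Kcnj2 and Kcnc2 each time. Leaving out 1 library gave 7 to 13 that rose and 4 to 9 that fell, and 4 fell without Cdo1KKO/Sed replicate 1 or without Cdo1KKO/Sed replicate 2. Over all genes, 3250 rose and 3185 fell. With library size only 5513 rose and 1685 fell, with log2(TPM + 0.1) 6660 rose and 1224 fell, and with log2(TPM + 1) 6784 rose and 1246 fell. Leaving out 1 library gave 2306 to 3767 that rose and 2331 to 3553 that fell. The median over all genes, 0.01, was 0.18, 0.25 and 0.19 under these scalings. The count of non-overlapping genes, 25, was 24 to 25 under the other scalings. RLE factors, DESeq2, limma-voom and both filters kept every count within 1.5 times. In the 46 genes put through these settings, direction reversed, in no case past the threshold, for 6. With TPM plus 0.1 and plus 1 the log2 fold change was 0.064 and 0.037 for Kcnrg, 0.043 and 0.011 for Kcnma1, and 0.0082 in both for Atp1b1. On leaving out 1 library it ranged over -0.39 to 0.070 for Kcnrg, -0.40 to 0.026 for Kcnma1, -0.35 to 0.45 for Kcnn4, -0.099 to 0.23 for Kcnj11 and -0.011 to 0.34 for Kcnj5. The replicate numbers did not pair the samples: same-numbered libraries had correlations of -0.00218, 0.0105 and 0.0125 in their deviations from the group means. With the replicate block 10 potassium channel genes rose and 6 fell (the call for Kcnn1 ended at an adjusted p of 0.0623, as did that of Sgk1 at 0.0618), and 3117 and 3029 of all genes. The 41 untested genes had too few counts to be tested in the main fit.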
